A study of Mus musculus with 6 samples.

Results

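Hemidesmosomes are the adhesions that fasten basal keratinocytes to the basement membrane. The genes described here are 9 members of that system: the integrin subunits Itga6, Itgb4, Itga3 and Itgb1, the transmembrane collagen gene Col17a1, the plakin linker genes Dst and Plec, and the laminin-332 chain genes Lama3 and Lamb3. They were chosen by gene symbol, and all 9 were found among the 24453 symbols of each library. RNA was measured in epidermal cells from newborn mice (postnatal day 0), in 3 control libraries and 3 libraries labelled Eed cKO with the genotype Eed-/-. The Eed product is a core part of PRC2, the Polycomb complex that methylates lysine 27 of histone H3. Back skin was dissociated, and EpCAM-positive, Sca1-positive cells that carried much α6-integrin on their surface were sorted as interfollicular epidermis enriched for progenitors. The sources used here do not give the driver of the deletion, the control genotype beyond its name, or whether each library came from a separate mouse. A p-value therefore measures only the spread between libraries, which may be technical.

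In a hemidesmosome, the integrin pair α6β4 and collagen XVII span the membrane and bind laminin-332 outside the cell. Inside the cell, plectin and the epithelial form of dystonin (BP230) tie the complex to keratin filaments. The pair α3β1 also binds laminin-332 but connects to actin at focal contacts. Inherited loss of several of these proteins causes blistering of the skin, in the group of diseases called epidermolysis bullosa. High surface α6-integrin is a standard mark of basal cells, and it was part of the sort, so the presence of Itga6 RNA in these cells is not a finding. Cells with little surface α6-integrin were left out by the sort. The comparisons of Itga6 and of Itgb4, whose product pairs with α6, therefore hold only for cells that passed it.

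Libraries held 20998149 to 29998531 counts. Values below are counts scaled to a fixed library size (CPM, after TMM scaling for library composition), given for libraries 1, 2 and 3 of a group in that order. Eed itself was at 45.1, 41.1 and 53.1 CPM in control and at 37.0, 33.7 and 29.2 CPM in Eed cKO (edgeR log2 fold change -0.48, adjusted p 0.252). Every Eed cKO library was below every control library. A count over the whole gene is a weak check on the deletion, since the sources used here do not say which exons were deleted and 261 exonic bases are shared with a gene on the opposite strand. The basal markers Krt5, Krt14, Krt15 and Trp63 summed to 29830.5 to 36974 CPM in control and 25538 to 34882 CPM in Eed cKO, so both groups held basal keratinocyte RNA. Libraries numbered 1 of both groups stood apart from the other libraries on the second principal component, which held 22.3% of the variance. Leaving out both left 0 members called by edgeR.

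To show the DNA in front of these genes, upstream sequence was taken from RefSeq promoters (GRCm38.p6), of which the table held 8 for 5 members (Col17a1, Dst, Itga3, Itgb1 and Lamb3). The 3 sequences below belong to the members with the 2 most negative and the most positive log2 fold change, Eed cKO over control. Each runs 5′ to 3′ on the gene's strand, beginning 250 bases before the RefSeq start. It ends at that start or, where this comes sooner, before the first base that GENCODE annotates as exon. For Col17a1 this left 198 of the 250 bases and for Lamb3 249. The Lamb3 start lies inside the annotated gene, since other transcripts of Lamb3 begin farther upstream. Capitals mark a TATA box (TATAAA) or a GC box (GGGCGG) on either strand.
Col17a1, chr19:47692095-47692292, minus strand: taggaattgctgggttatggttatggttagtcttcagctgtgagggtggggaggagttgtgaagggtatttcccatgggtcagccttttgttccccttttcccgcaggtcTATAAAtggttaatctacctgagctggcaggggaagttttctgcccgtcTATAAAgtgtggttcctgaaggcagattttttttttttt
Lamb3, chr1:193301744-193301992, plus strand: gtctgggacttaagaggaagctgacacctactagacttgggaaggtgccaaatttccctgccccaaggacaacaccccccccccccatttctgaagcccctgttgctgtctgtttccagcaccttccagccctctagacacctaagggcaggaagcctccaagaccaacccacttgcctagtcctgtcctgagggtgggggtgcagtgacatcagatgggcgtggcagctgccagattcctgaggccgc
Itgb1, chr8:128685404-128685653, plus strand: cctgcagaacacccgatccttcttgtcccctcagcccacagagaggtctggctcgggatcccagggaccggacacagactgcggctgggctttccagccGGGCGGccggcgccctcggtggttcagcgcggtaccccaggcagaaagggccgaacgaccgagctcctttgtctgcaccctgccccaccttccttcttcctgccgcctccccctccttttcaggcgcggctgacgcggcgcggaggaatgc

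The 3 sequences differed in CpG content, the dinucleotide that is concentrated in CpG islands. The ratio of observed to expected CpG was taken over the full 250 bases before the start, with any annotated exon bases included. It was 0.165 for Col17a1 and 0.094 for this start of Lamb3, against 0.741 for Itgb1. The median over all 32841 promoters of that length was 0.374, and 34.0% had at least 0.6. Dst and Itga3 each had 1 start with high CpG (0.745 and 0.886) and 1 with less (0.392 and 0.31), and the other Lamb3 start was at 0.134. The TATA box letters were found at 1 of the 8 starts (Col17a1, 2 matches) and in 12.4% of all promoters, and the GC box letters at 4 of the 8 and in 32.7% of all. The letters of AP-1 sites (TGANTCA) and AP-2 sites (GCCNNNGGC) were at 0 of the 8 starts and in 6.8% and 13.7% of all promoters. Both strands were searched, an AP-2 match can overlap a GC box, and a match describes letters only.

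The comparison of Eed cKO with control asks whether RNA of the hemidesmosome system differs when Eed is deleted from epidermal cells. Of the 9 members, 0 were called higher and 0 lower by edgeR's quasi-likelihood test at an adjusted p under 0.05. Across all 14700 genes tested, 4.21% were called in either direction, 3.39% higher and 0.816% lower. DESeq2, which called 7.04% of all genes, and limma-voom also called 0 members. Among genes with a mean CPM at least that of the lowest member, edgeR called 3.7%. At an unadjusted p under 0.05 there was 1 member, Col17a1, against 14.9% of all genes. The members' median log2 fold change was -0.02, beside -0.01 for all genes, with 4 members above 0 and 5 below.

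All 9 members passed the filter on low counts, with 5042 to 226679 counts per library, so counting error (at most 1.41%) was small beside the spread between libraries. The 95% interval of the fold change lay within 2-fold in either direction for all 9, and within 1.5-fold for Itga6, Itgb4, Dst and Plec. Summed CPM of the 9 genes, as a percentage of the TMM-scaled library size, was 1.58, 1.69 and 1.49% in control. In Eed cKO it was 1.52, 1.499 and 1.48%. This scaled share overlapped between the groups. In bulk RNA, fewer cells of a type and less RNA per cell cannot be told apart.

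**Figure D1:**
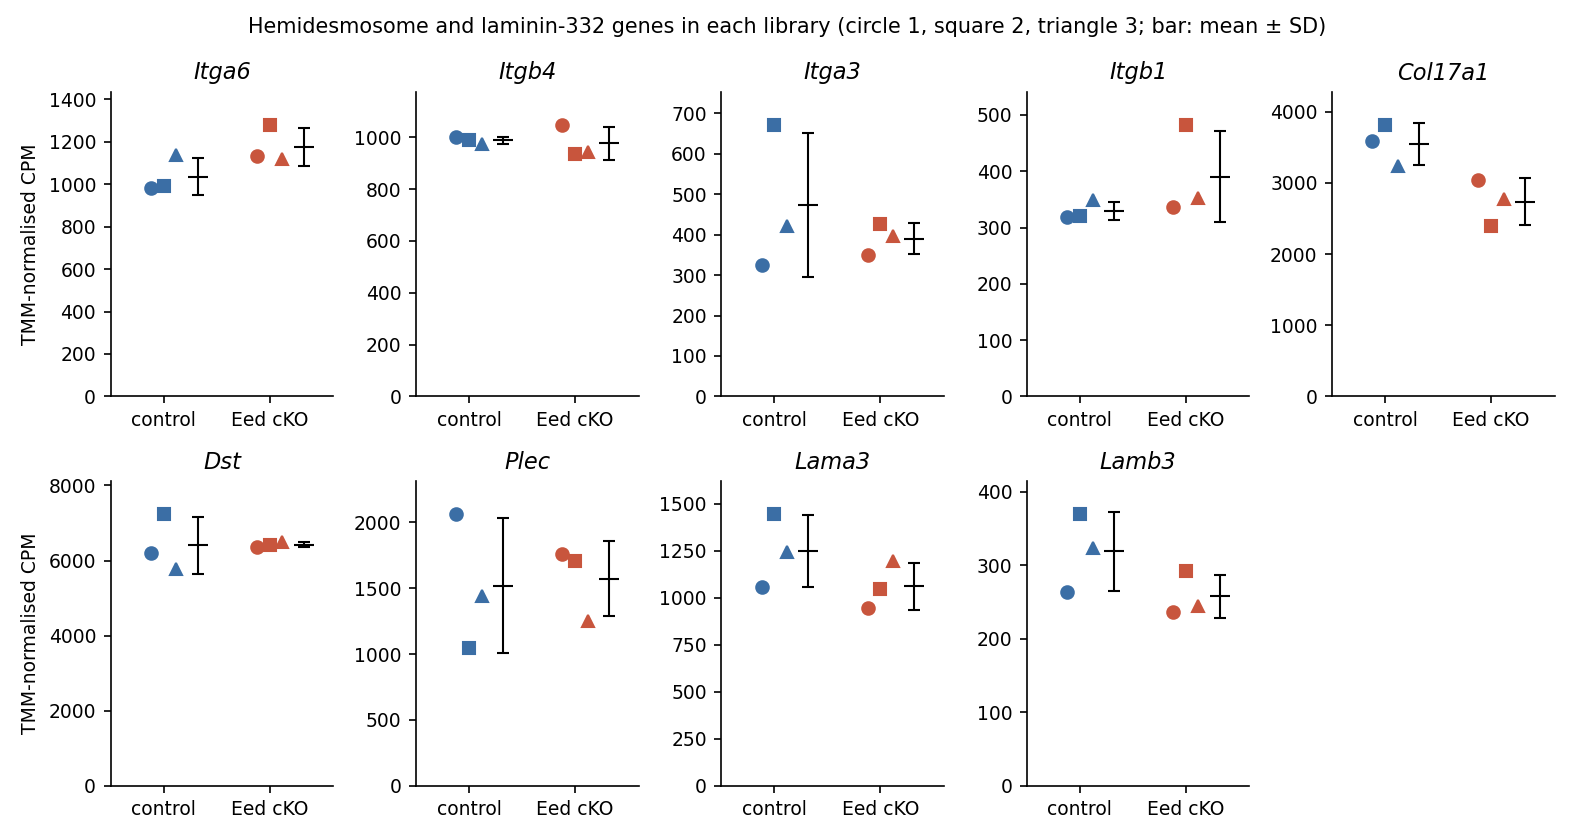
Values of the 9 members in each library, in TMM-normalised CPM on a linear axis from 0. Circles, squares and triangles are libraries 1, 2 and 3, and black bars give the mean ± SD of 3 libraries. The groups do not overlap for Col17a1 alone among the genes drawn, with control at 3239.5 to 3818 CPM and Eed cKO at 2394 to 3041 CPM.

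The hemidesmosomal integrin did not pass the test in either subunit. Itga6 (chromosome 2, 71745616 to 71858416, GRCm38) encodes the α6 subunit, whose protein was selected in the sort. It was at 982, 989.6 and 1136 CPM in control and at 1133, 1281 and 1117 CPM in Eed cKO. Control library 3 lay inside the Eed cKO range, so the groups overlapped. The means were 1036 ± 86.8 and 1177 ± 90.5 CPM (SD, n = 3 libraries each), with a log2 fold change of 0.18 ± 0.15 (SE) and an edgeR adjusted p of 0.667. The fold change was 1.14, with a 95% interval of 0.907 to 1.42.

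Itgb4 (chromosome 11, 115974709 to 116008412) encodes the β4 subunit, which pairs only with α6 and carries the long cytoplasmic tail that binds plectin. It was the steadiest integrin, at 1001, 989 and 975 CPM in control and at 1049, 935 and 945 CPM in Eed cKO. Eed cKO library 1 was the highest of the 6 and Eed cKO library 2 the lowest, and the control values lay between them. Its log2 fold change was -0.02 ± 0.15 (edgeR adjusted p 0.979), and the 95% interval of the fold change ran from 0.796 to 1.23.

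Itga3 (chromosome 11, 95044474 to 95076801) encodes the α3 subunit of the second laminin-332 receptor. It was at 326, 672 and 423 CPM in control and at 349, 425 and 396 CPM in Eed cKO. Control library 2 was far above the other 5 libraries, while control library 1 was the lowest of all. The log2 fold change of -0.28 ± 0.22 (edgeR adjusted p 0.654) became 0.07 when control library 2 was left out, so the sign of the estimate rested on that library.

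Itgb1 (chromosome 8, 128685654 to 128733200) encodes the β1 subunit, the shared partner of many α subunits including α3. It was at 319, 321 and 349 CPM in control and at 336, 483 and 352 CPM in Eed cKO. Eed cKO library 2 stood above the rest, and the other 5 libraries were close together across both groups. The log2 fold change was 0.25 ± 0.17 with an edgeR adjusted p of 0.586.

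Col17a1 (chromosome 19, 47646344 to 47692094) encodes collagen XVII, the transmembrane collagen that ties basal cells to the basement membrane. It was at 3589.7, 3818 and 3239.5 CPM in control and at 3041, 2394 and 2776 CPM in Eed cKO. Every Eed cKO library was below every control library, which was so for no other member and for either direction in 20.3% of all genes tested. The means were 3549 ± 292 and 2737 ± 325 CPM, a fold change of 0.771 (95% interval 0.609 to 0.977). The unadjusted p was 0.0337 and the edgeR adjusted p over all genes was 0.278, so Col17a1 did not pass the test. Its log2 fold change of -0.37 ± 0.16 stayed between -0.46 and -0.28 under the 16 alternative analyses, with adjusted p from 0.168 to 0.568.

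**Figure D2:**
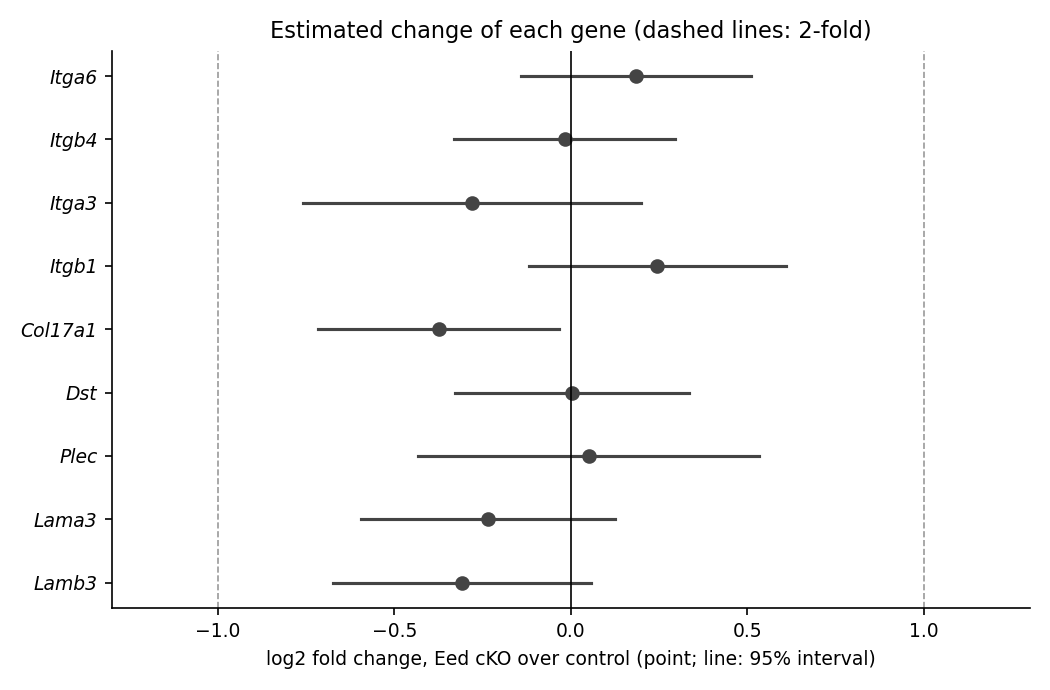
Log2 fold change, Eed cKO over control, of each member from edgeR (point) with its 95% interval (line). Dashed lines mark 2-fold in either direction. Every interval lies inside the dashed lines, and that of Col17a1 (-0.72 to -0.03) is the only one that leaves out 0, before adjustment over all genes.

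The plakin genes encode the linkers to keratin filaments, and both had nearly equal group means. Dst (chromosome 1, 33908225 to 34308661), which encodes dystonin and its epithelial form BP230, was at 6193, 7244 and 5777 CPM in control. It was at 6364, 6422 and 6481 CPM in Eed cKO. The Eed cKO libraries lay within a narrow band, inside the range of the control libraries. The log2 fold change was 0.00 ± 0.15 (edgeR adjusted p 0.995, 95% interval of the fold change 0.797 to 1.26). Counts are per gene, so the epithelial form could not be separated from the neuronal and muscle forms of Dst.

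Plec (chromosome 15, 76170974 to 76232574) encodes plectin. It was at 2065, 1049.7 and 1441 CPM in control and at 1761, 1709.8 and 1248 CPM in Eed cKO. The highest and the lowest of the 6 values were both control libraries, so the spread within control covered the whole Eed cKO range. Its log2 fold change was 0.05 ± 0.22 (edgeR adjusted p 0.961), and -0.14 without control library 2.

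Lama3 and Lamb3 encode the α3 and β3 chains of laminin-332, the ligand of both integrin pairs. Lama3 (chromosome 18, 12333819 to 12583013) was at 1059.5, 1446 and 1242 CPM in control and at 946, 1045 and 1193 CPM in Eed cKO. The 2 lowest values were from Eed cKO, but Eed cKO library 3 was above control library 1. The log2 fold change was -0.23 ± 0.17 (edgeR adjusted p 0.598).

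Lamb3 (chromosome 1, 193207699 to 193343878), the β3 chain, was at 263, 369.9 and 324 CPM in control and at 237, 292 and 244 CPM in Eed cKO. Control library 1 lay inside the Eed cKO range. The log2 fold change was -0.31 ± 0.17, with an unadjusted p of 0.0917 and an edgeR adjusted p of 0.446. Neither chain passed the test in either direction.

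The libraries did not deviate alike over the members. Control library 2 had the highest of the 6 values for 5 members (Itga3, Col17a1, Dst, Lama3 and Lamb3) and the lowest for Plec. Eed cKO library 2 was highest for Itga6 and Itgb1 and lowest for Itgb4 and Col17a1. The coefficient of variation within a group ran from 0.916% (Dst, Eed cKO) to 37.7% (Itga3, control). The members with the widest intervals, Itga3 and Plec, are those in which control libraries 1 and 2 held both extremes.

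Some counts are less certain because exons overlap other genes and the sources used here do not give the strand setting of the counting. Itgb4 shared 537 exonic bases, Dst 1493 and Lama3 197 with genes on the opposite strand, and Plec shared 205 with Parp10 on the same strand. The other 5 members shared 0.

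Levels were compared between genes only after division by the length of their exons merged over all transcripts, as CPM per kb. By this length Col17a1 was highest in both groups, at 590.4 ± 48.5 CPM per kb in control and 455 ± 54.1 in Eed cKO. Dst followed with 156 ± 18.4 in control, Itgb4 with 141 ± 1.81, Lama3 with 116 ± 18.01 and Itga6 with 115 ± 9.61 CPM per kb. Plec, Itga3 and Itgb1 were close together in control, at 83.8 ± 28.3, 82.9 ± 31.3 and 80.7 ± 4.09 CPM per kb. Lamb3 was lowest of the 9, at 48.3 ± 8.08 in control and 39.0 ± 4.50 CPM per kb in Eed cKO.

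Among neighbours in the control order, library ranges were apart only between Col17a1 and Dst, between Itgb4 and Lama3, and between Itgb1 and Lamb3. All other neighbours overlapped. The order in the middle depended on the length used: divided by the longest transcript, Itga6 ranked 3 at 240.3 CPM per kb in control. Col17a1, Dst and Lamb3 kept the first, second and last places with either length. Neither length was chosen for the form of a gene present in these cells, which counts per gene cannot show. For Dst the lengths were 41.155 kb merged and 23.279 kb for the longest transcript. Its place below Col17a1 therefore holds for these lengths only.

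**Figure D3:**
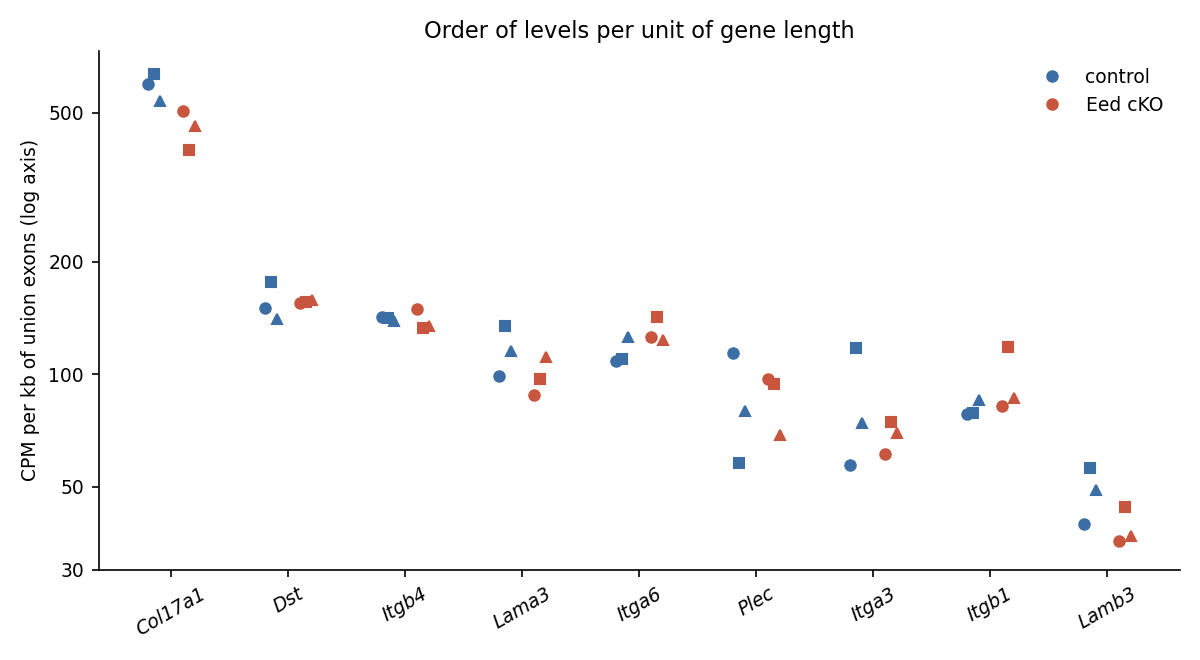
CPM per kb of merged exon length for the 9 members in each library, on a log axis, in the order of the control means. Blue points are control and red points Eed cKO libraries, with circles, squares and triangles for libraries 1, 2 and 3. Col17a1 lies above all other genes and Lamb3 lies lowest by the mean, while the genes between Dst and Itgb1 overlap with their neighbours in most cases.

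Ratios of partner genes within a library need no scaling between libraries, and 7 were compared by two-sided exact permutation tests over the 3 against 3 libraries, which cannot go below p = 0.1. Itga6 over Itgb4, the subunits of the hemidesmosomal integrin, was 0.763, 0.778 and 0.905 in control and 0.839, 1.06 and 0.919 in Eed cKO. The groups overlapped, and the difference in mean log2 ratio was 0.20 (exact permutation p 0.2, adjusted over the 7 ratios 0.42). By merged exon length, Itga6 was below Itgb4 in 5 of the 6 libraries, whereas by the longest transcript its control mean was above that of Itgb4.

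Col17a1 over Itgb4 compares the collagen with the integrin of the same adhesion. It was 4.19, 4.50 and 3.88 in control and 3.38, 2.99 and 3.43 in Eed cKO. This was the only ratio whose groups did not overlap. The difference in log2 ratio was -0.36, with the smallest exact permutation p this design allows, 0.1 (adjusted 0.42). It stayed between -0.41 and -0.30 when any 1 library was left out.

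Itga3 over Itgb1, the α3β1 pair, was 0.731, 1.499 and 0.866 in control and 0.743, 0.630 and 0.804 in Eed cKO. Control library 2 was again the exception, and without it the difference in log2 ratio moved from -0.45 (exact permutation p 0.3, adjusted 0.42) to -0.14. Lama3 over Lamb3, the laminin-332 chains, was 2.36 to 2.48 in control and 2.204 to 3.01 in Eed cKO, with a log2 difference of 0.07 (exact permutation p 0.8, adjusted 0.8), and -0.05 without Eed cKO library 3. The Eed cKO range enclosed the control range. Dst over Plec was 1.32 to 3.04 in control and 1.59 to 2.28 in Eed cKO, also with p 0.8 by the exact permutation test, and its log2 difference of -0.08 turned to 0.25 without control library 2 and 0.02 without Eed cKO library 1. The 2 ratios between receptors, Itga6 over Itga3 and Itgb4 over Itgb1, differed by 0.40 and -0.25 on the log2 scale (exact permutation p 0.2 and 0.3, adjusted 0.42 each). The first was 0.09 without control library 2, and the second -0.05 without Eed cKO library 2.

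**Figure D4:**
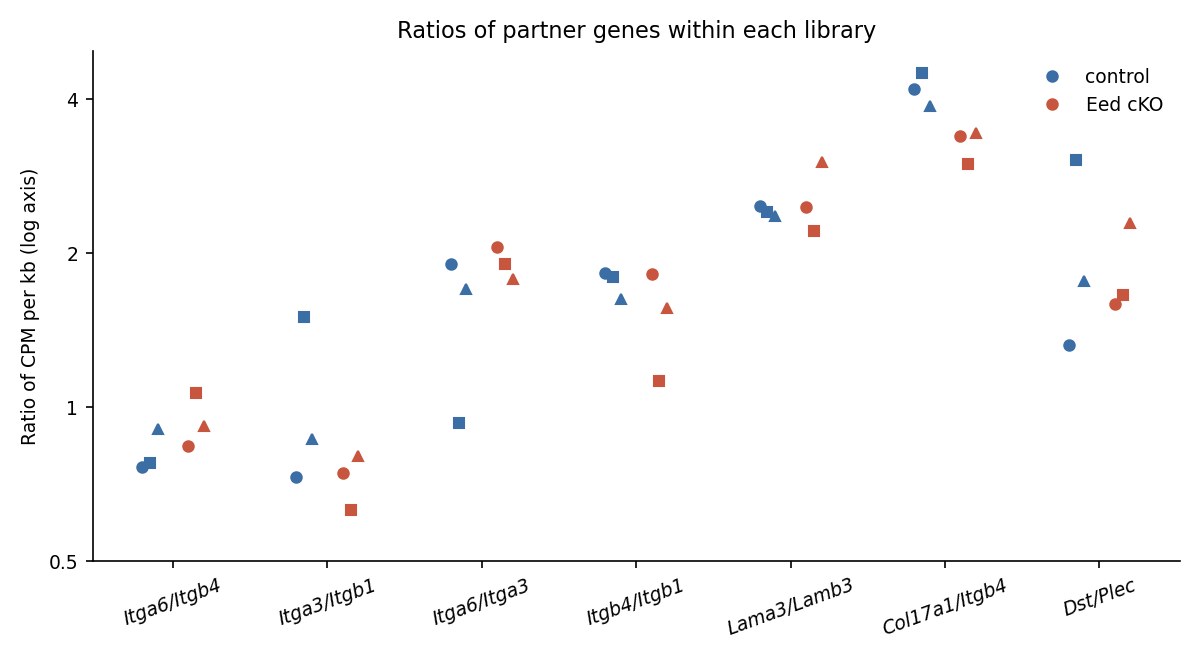
Ratio of CPM per kb of partner genes within each library, on a log axis, for 7 pairs. Blue is control and red Eed cKO, with circles, squares and triangles for libraries 1, 2 and 3. Col17a1 over Itgb4 is the only pair whose groups lie apart (3.88 to 4.50 in control, 2.99 to 3.43 in Eed cKO), and control library 2 stands apart in both pairs that hold Itga3.

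Genes that work beside the members were read from 5 lists. For reference, edgeR called 4.21% of all genes tested and DESeq2 7.04%. An unadjusted edgeR p under 0.05 was found for 14.9% of all genes, and ranges apart for 20.3%. Among 10 genes in a list of plaque partners, other plakins and basal keratins that also held Sfn, 1 rose and 0 fell, with a median log2 fold change of 0.01. Krt5, the keratin that plectin and BP230 hold, was at 22623 ± 3399 CPM in control and 22537 ± 3674 in Eed cKO, and its partner Krt14 at 5461 ± 732 and 4930.2 ± 1161 CPM. Cd151, a tetraspanin that associates with α3β1 and α6β4, was at 85.8 ± 13.4 and 86.7 ± 35.3 CPM. The basal markers Krt15 and Trp63 had estimates like that of Col17a1, each -0.37 on the log2 scale with ranges apart and edgeR adjusted p 0.394 and 0.266. The gene that rose was Sfn, which encodes 14-3-3σ, a regulator of keratinocyte proliferation. It went from 117 ± 1.80 to 199 ± 34.5 CPM (edgeR adjusted p 0.0185), 0.77 on the log2 scale, and was no longer called without control library 2 (0.0512) or 3 (0.0966) or Eed cKO library 1 (0.0600) or 2 (0.0588). Erbin, a plaque protein that binds β4, and the plakin gene Ppl were not called (log2 fold changes -0.38 and -0.20, edgeR adjusted p 0.477 and 0.634).

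Of 20 other integrin subunit genes tested, 2 rose and 0 fell, while the median log2 fold change was -0.21. Itgb8 (chromosome 12, 119158022 to 119238802), whose product pairs with αv to activate latent TGF-β, was at 2.17, 0.735 and 1.87 CPM in control and at 15.4, 13.04 and 20.1 CPM in Eed cKO. Every Eed cKO library was far above every control library. The fold change was 10.2 (95% interval 5.42 to 19.1, edgeR adjusted p 0.000359), and Itgb8 was called in all 16 alternative analyses.

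Itgb6, the other αv partner that activates TGF-β, rose from 23.0 ± 10.9 to 52.1 ± 5.87 CPM (edgeR log2 fold change 1.17, adjusted p 0.0276). Leaving out control library 1 (0.0887) or 3 (0.133) or Eed cKO library 2 (0.121) or 3 (0.0945) ended that call. The leukocyte integrin genes Itgae and Itgal had log2 fold changes of -1.38 and -1.33 (edgeR adjusted p 0.226 and 0.409). Without Eed cKO library 1, Itgal was called at -2.83 (0.0210). Immune marker genes summed to 112 to 431 CPM in control and 53.3 to 329 CPM in Eed cKO, with the highest sum of each group in its library 1 and 1 of 5 tested genes called lower. Their part in these values was not tested.

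Among 26 tested basement membrane genes other than the members, 1 rose and 0 fell, with a median log2 fold change of 0.16. The gene that rose was Tinagl1, which encodes a matrix protein, from 8.86 ± 2.06 to 18.5 ± 0.839 CPM (edgeR log2 fold change 1.06, adjusted p 0.0383). The call was lost without any 1 library other than control library 2 (adjusted p up to 0.171). Lamb1, the β1 chain of several other laminins, was at 68.3 ± 16.2 and 111 ± 9.31 CPM with ranges apart and missed the threshold (edgeR log2 fold change 0.71, adjusted p 0.0626). DESeq2 called it (0.0143). Col4a3 and Lamb2 had log2 fold changes of 2.23 and -0.43 and edgeR adjusted p of 0.116 and 0.219, and DESeq2 called Col4a3 (0.0255). Dermal fibroblast markers, another source of basement membrane RNA, summed to 386 to 579 CPM in control and 566 to 649 CPM in Eed cKO. The most abundant of them was Dcn, at 215 ± 87.7 CPM in control and 327 ± 65.4 CPM in Eed cKO. Of 6 tested, 3 had a log2 fold change above 0 and 3 below, and edgeR called 0. The part of fibroblast RNA was not tested.

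Focal adhesions join β1 integrins to actin. Of 26 such genes tested, 2 rose and 0 fell, and the median log2 fold change was 0.02. Tns3, which encodes the adaptor tensin 3, was at 33.1, 26.6 and 37.4 CPM in control and at 87.5, 94.8 and 83.9 CPM in Eed cKO. The groups were far apart (edgeR log2 fold change 1.45, adjusted p 0.000412), and the gene was called in all 16 alternatives. Vcl, which encodes vinculin, had means of 184 ± 17.5 and 331 ± 45.3 CPM and was called higher (0.85, edgeR adjusted p 0.00819, but 0.0529 without Eed cKO library 3), with 2090 exonic bases shared with Ap3m1 on the opposite strand. Kank1, which links talin to the cell cortex, was at 94.0 ± 18.03 and 147 ± 19.8 CPM and was not called (edgeR adjusted p 0.0745), but was by DESeq2 (0.0216), with low counts kept (0.0240), with a replicate block (0.0161) and without Eed cKO library 1 (0.0487). Tns4, another tensin gene, was at 224 ± 32.6 and 287 ± 55.6 CPM (edgeR adjusted p 0.399).

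Of 14 other matrix receptors and proteases that cut laminin-332 or shed collagen XVII, edgeR called 0, DESeq2 called 2, and 3 had an unadjusted p under 0.05. Their median log2 fold change was 0.27. Plau, the urokinase gene, was at 19.1 ± 4.29 and 33.8 ± 6.48 CPM, and the syndecan gene Sdc4 at 265 ± 64.8 and 399 ± 32.1 CPM (edgeR adjusted p 0.0705 and 0.0999). These were the 2 genes that DESeq2 called (0.0179 and 0.0330). Mmp9, a gelatinase gene, was low at 0.166 ± 0.189 and 1.10 ± 0.616 CPM. Its log2 fold change was 2.66 (edgeR unadjusted p 0.0269, adjusted p 0.247). Its ranges were only just apart, with control at most 0.383 CPM and Eed cKO at least 0.387 CPM. Plau, Sdc4 and Mmp9 were the genes with an unadjusted p under 0.05. Adam10, a shedding protease, was at 93.8 ± 8.88 and 117 ± 25.5 CPM.

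**Figure D5:**
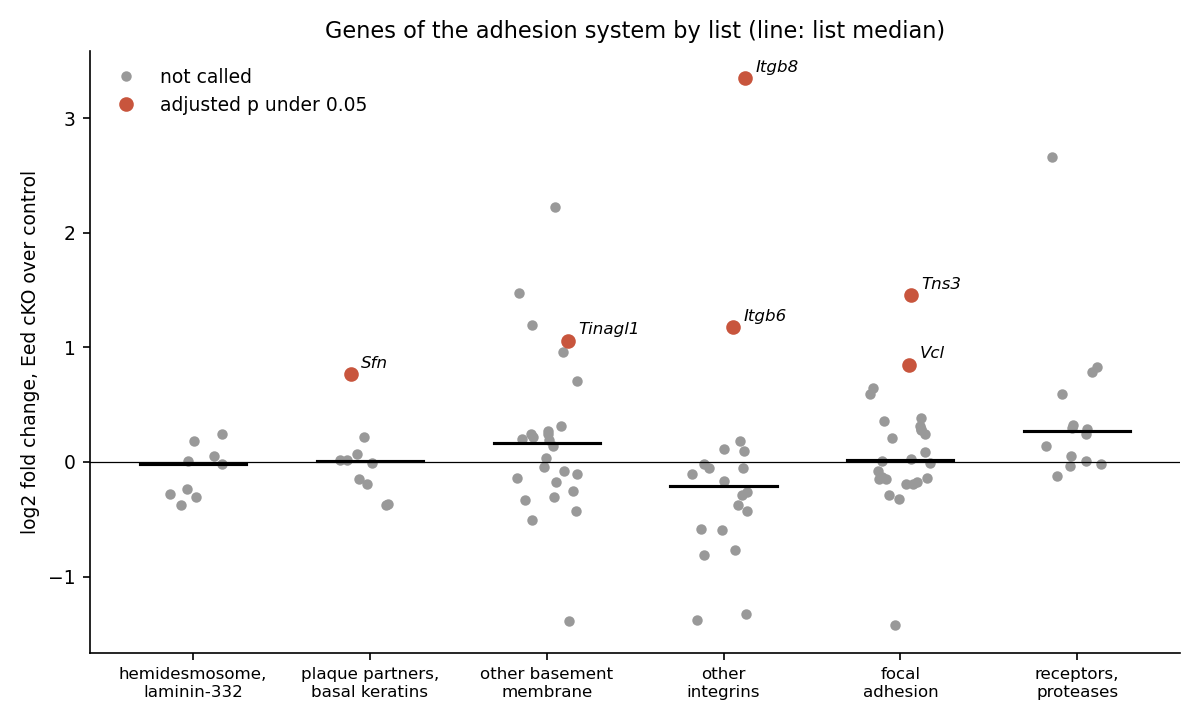
Log2 fold change, Eed cKO over control, of each gene tested in the 9 members and in the 5 lists of related genes. Points are genes, red where the edgeR adjusted p was under 0.05, and black lines are list medians. The members lie between -0.37 and 0.25 with none called, and the called genes of the other lists lie between 0.77 and 3.35.

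Cell composition and sort markers were read beside these values. Suprabasal markers summed to 3326 to 4359 CPM in control and 5089 to 8092 CPM in Eed cKO, with no overlap. Krt1, the most abundant of them, overlapped between the groups when read alone. Ranges were apart for 2 of 7 tested, Krt10 and Sbsn, beside 20.3% of all genes tested. Of the 7, Krt10, an early differentiation keratin, was called, from 847 ± 96.0 to 2018 ± 441 CPM (edgeR log2 fold change 1.25, adjusted p 0.00126). Krt1 was at 2227 ± 516 and 4010.1 ± 1332 CPM and missed the threshold in edgeR (adjusted p 0.0711). Krt1 was called by DESeq2 (0.00924), with low counts kept (0.00279), with a replicate block (0.00488), without Eed cKO library 1 (0.0105) and without both libraries numbered 1 (0.0144). Lor, Ivl, Sbsn, Krtdap and Dsg1a had log2 fold changes of 0.92, 0.69, 0.54, -0.16 and 0.48 and were not called by edgeR. Lor was called by DESeq2 (0.0489), with low counts kept (0.0398), with a replicate block (0.0243) and without Eed cKO library 1 (0.0489). Dsg1a was called without Eed cKO library 1 (0.0283) and without both libraries numbered 1 (0.0310). Merkel cell markers summed to 0.195 to 1.82 CPM in control and 7.75 to 14.1 CPM in Eed cKO, also with no overlap, and 2 of 4 tested were called higher. The most abundant gene of that list was Sox2, which encodes a transcription factor. Ranges were apart for 3 of the 4 but not for Krt8, at 0 to 1.25 CPM in control and 1.06 to 1.21 CPM in Eed cKO. Whether the sum reflects a number of Merkel cells was not tested. The part of these cell types in the values of Col17a1 and the other members was not tested.

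Among the genes of the sort, Epcam was at 64.5, 104 and 77.4 CPM in control and at 119.8, 151 and 148 CPM in Eed cKO. It rose by 0.77 on the log2 scale (edgeR adjusted p 0.0433), and lost that call without control library 1 (0.134) or 3 (0.171) or Eed cKO library 2 (0.161) or 3 (0.165). Ly6a, which encodes Sca1, and Itga6 were not called, with log2 fold changes of 0.17 and 0.18. The 3 sort genes summed to 1080 to 1262 CPM in control and 1314 to 1476 CPM in Eed cKO. These sums did not overlap, though among the single genes ranges were apart for Epcam alone. Hair follicle markers summed to 666 to 912 CPM in control and 758 to 867 CPM in Eed cKO, with 1 of 6 called lower. Endothelial, melanocyte, Schwann cell and muscle markers summed to at most 34.8, 21.5, 38.9 and 14.4 CPM in any library. Of these low sums only that of muscle did not overlap, at 7.25 to 7.85 CPM in control and 9.07 to 14.4 CPM in Eed cKO. Of 3 muscle markers tested, edgeR called 0.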

How the data were processed

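RNA was total RNA from sorted newborn epidermal cells, amplified and then sequenced as single reads, per the labels. The authors deposited raw counts per gene symbol, not normalized. The submitters' processing notes name HTSeq 0.6.1, TopHat2 2.0.13, the build mm10, DESeq2 1.6.3 and Cufflinks 2.2.1. The sources used here do not give the role of each tool, the annotation or the strand setting.

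Counts of 3 control and 3 Eed cKO libraries were fitted in R 4.3.3 with edgeR 4.0.16 (TMM scaling, filterByExpr, quasi-likelihood F-test on genotype, Benjamini-Hochberg adjustment over the 14700 genes tested, threshold 0.05). The filter removed 9753 symbols. The SE is the size of the log2 fold change divided by the square root of F. DESeq2 1.42.0 and limma-voom (limma 3.58.1) were alternatives. Lengths and coordinates came from GENCODE M21 (GRCm38) and promoters from RefSeq. The pipeline was tested on simulated data. Matplotlib 3.10.9 drew the figures.

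The members, the lists of related genes and markers, and the naming rule were chosen with earlier results of these data known. The rule named all members, Cd151, Krt5 and Krt14, every called gene of a related list or its smallest p-values up to 4 genes, Eed, and basal, suprabasal and sort markers. Some genes that the rule or the lists held are not reported here, and the counts and medians of their lists leave them out.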

Additional observations from a re-analysis of the deposited data

How the results depend on the processing

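Over 16 alternatives (scaling by RLE or by the upper quartile, low counts kept, a floor of 1 CPM in 3 libraries, DESeq2, limma-voom, robust dispersion, a replicate block, leaving out Rn45s, each library, or both libraries numbered 1), 0 members were called higher and 0 lower, with a lowest adjusted p of 0.168. The reported analysis did not pair libraries by replicate number. Correlations of their deviations were 0.292, 0.110 and 0.0227 between libraries of the same number, not all over 0.1. Between unlike numbers they ran from -0.209 to 0.119. So few correlations cannot decide on pairing, and whether libraries of the same number share a factor was not tested. The replicate block called 675 genes higher and 269 lower, against 499 and 120 without it. DESeq2 called 764 higher and 270 lower, and keeping low counts gave 257 lower. Leaving out 1 library gave 302 to 456 higher (323 without control 3, 302 without Eed cKO 3) and 35 to 118 lower (59 without control 2, 35 without control 3, 51 without Eed cKO 2, 44 without Eed cKO 3).

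Basement membrane genes called higher, 1 in the reported analysis, were 2 with upper-quartile scaling, low counts kept, limma-voom or the block, 3 with DESeq2, 0 without both libraries numbered 1, and 0 to 2 without 1 library. Genes of the plaque list called higher, Sfn alone in the reported analysis, were 0 without both libraries numbered 1 and 0 to 1 without 1 library. Other integrins called higher were 1 without both, and 1 to 2 without 1 library; lower they were 1 without both, and 0 to 1 without 1 library. Receptors and proteases called higher were 2 with low counts kept, DESeq2 or the block and 0 to 1 without 1 library. Focal adhesion genes called higher, 2 in the reported analysis, were 3 with low counts kept, DESeq2 or the block and 1 to 3 without 1 library. For Lamb1 the adjusted p was under the threshold with upper-quartile scaling (0.0490), limma-voom (0.0474), the block (0.0132) and low counts kept (0.0135), and without control 2 (0.0465).

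Signs turned only for genes that were not called. Dst was at -0.000487 with low counts kept, -0.00944 without both libraries numbered 1 and -0.069 to 0.12 without 1 library. Krt5 was at 0.00135 with RLE and with DESeq2, 0.011 with upper-quartile scaling, 0.00172 with the CPM filter, 0.00574 without Rn45s and -0.10 to 0.12 without 1 library. Cd151 was at -0.031 with limma-voom, -0.045 with the block, -0.34 without both libraries numbered 1 and -0.37 to 0.20 without 1 library. Ly6a was at -0.32 without both and -0.10 to 0.45 without 1 library. Without 1 library, log2 fold changes ran from -0.074 to 0.021 for Itgb4, -0.49 to 0.074 for Itga3, -0.14 to 0.33 for Plec, -0.27 to 0.034 for Krt14 and -0.45 to 0.011 for Krtdap. The cause of these shifts was not tested.

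With 3 libraries a group, intervals of the members reached 0.591 (Itga3) and 1.53 (Itgb1) as fold changes, and were narrower for other members. Fold changes inside a member's own interval could not be told apart. Counting depth was not the limit for the members.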
